A study of Bos taurus with 7 samples.

Results

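Bovine blastocysts from oocytes matured in vitro with etomoxir were compared with blastocysts from oocytes matured in vitro with IO+DHEA. The libraries were chosen by their treatment label, which gave 5 of the 7 libraries of the series: 3 labelled Etomoxir and 2 labelled IO+DHEA. The 2 libraries labelled Control are not in the comparison. Their values are given beside some results as background, and they enter 1 alternative fit named in the closing section. A gene entered the comparison when at least 2 of the 5 libraries had at least 10 counts, which held for 14721 of the 27607 Ensembl gene IDs in the count table. The libraries were made from total RNA of embryos at the blastocyst stage, the stage when an outer trophectoderm and an inner cell mass surround a fluid-filled cavity. The labels give no dose, breed or number of embryos per library. They also do not say that the libraries came from separate cultures or animals, so each p-value covers only the spread from library to library, which may be technical.

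The question was whether blocking fatty acid oxidation and blocking glucose use in the maturing oocyte leave different transcripts in the embryo. Long-chain fatty acids enter the mitochondrion as carnitine esters, and etomoxir inhibits carnitine palmitoyltransferase 1, the enzyme that makes those esters at the outer mitochondrial membrane. Glucose is used in the cumulus-oocyte complex by glycolysis, which supplies pyruvate to the oocyte, and by the pentose phosphate pathway, which supplies NADPH and ribose. DHEA is the usual abbreviation of dehydroepiandrosterone, a steroid known to inhibit glucose-6-phosphate dehydrogenase, the first enzyme of the pentose phosphate pathway. IO is not spelled out in the labels, and the series describes the pair as an inhibitor of glucose metabolism. The embryos were profiled at a later stage than the treated one, so the values are those of embryos that reached the blastocyst stage, not of treated oocytes.

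The files do not pair the gene IDs with symbols, and 0 IDs were found in the reference gene table used here. Genes are therefore described as groups, and 2 genes per direction are given by ID. For the same reason the blastocyst label was not checked against lineage markers, and markers of cumulus cells or other cell types were not measured. Total counts were 84739741 to 122061453 per library. Genes just inside the filter, with a second-highest count of 10, numbered 153, and 62 genes lay just outside it at 9, levels of 0.0737 to 0.118 CPM (the counts-per-million scale). The genes left out held 0.00961% to 0.0236% of the counts of a library.

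The IO+DHEA libraries stood apart from each other before any comparison between the groups. CPM levels use totals scaled by the trimmed mean of M-values (TMM). Of the 7632 genes averaging 5 CPM or more in the 5 libraries, 7.02% differed by over 4-fold between the IO+DHEA libraries, against 0.799% to 0.917% between pairs of etomoxir libraries. Between an etomoxir library and IO+DHEA library 1 this share was 10% to 11.3%, and between an etomoxir library and IO+DHEA library 2 it was 5.07% to 6.71%. The IO+DHEA libraries were thus about as far from each other as library 2 was from the etomoxir libraries.

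IO+DHEA library 1 also lacked counts for more of the low-abundance genes. Among genes with a mean of 1 to 2 CPM in the other 4 libraries, 18.1% had 0 counts in the first IO+DHEA library and 3.61% in the other, against 0.779% to 1.42% in the etomoxir libraries. At 2 to 5 CPM the shares were 8.41% and 0.818%, against 0.107% to 0.428% in etomoxir. From 20 CPM upwards, 0 genes were at 0 counts in either IO+DHEA library. A count of 0 allows up to 3 counts, or 0.0233 to 0.0376 CPM in these libraries, which covers counting error only. The number of genes with at least 1 count was 15898, 15713 and 15504 in the etomoxir libraries and 12990 and 15056 in the IO+DHEA libraries. The means were 15705 ± 197 (SD, n = 3) and 14023 ± 1461 (SD, n = 2), and the groups did not overlap. The difference of 1682 genes was 649 without IO+DHEA library 1 and 2715 without library 2. The exact two-sided permutation p was 0.2, the smallest that 3 against 2 libraries allow. Among counts of 1 to 20, 78.3% were even in IO+DHEA library 1 and 67.7% to 71.2% in the other 4 libraries, so 1 fragment may have added more than 1 count. In whole embryos, fewer cells of a type and less RNA per cell cannot be told apart.

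**Figure D1:**
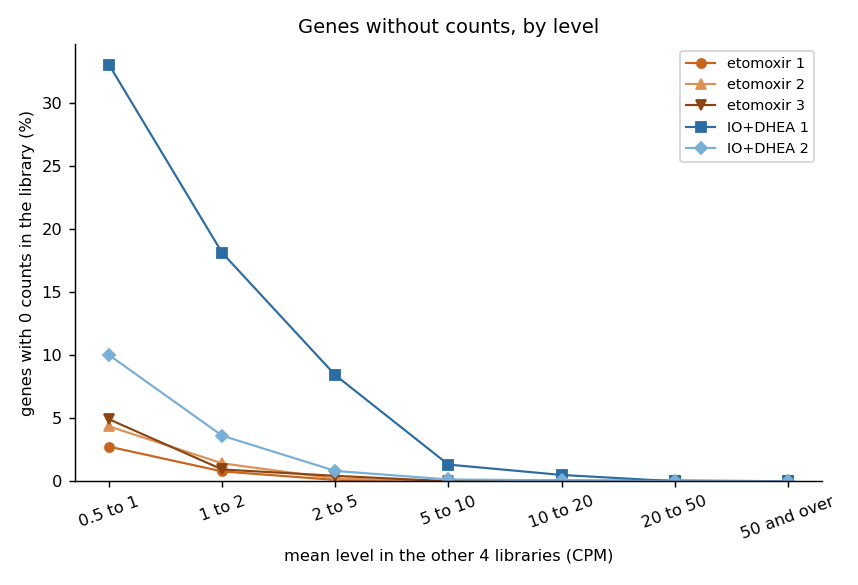
The x axis gives classes of genes by their mean in the other 4 libraries (CPM), the y axis the share of the class with 0 counts in a library (%), and each line is 1 library. IO+DHEA library 1 lies above the rest up to 20 CPM, with 18.1% at 1 to 2 CPM, while the 3 etomoxir libraries stay at or under 1.42% there.

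Between the groups 930 transcripts were called as differing in level, by a fit that takes 1 spread per gene for both groups. The spread was not alike: at 5 CPM or more, 7.02% of genes were over 4-fold apart within IO+DHEA. Within etomoxir this share was at most 0.917%. Whether the calls and their p-values hold with a separate spread per group was not tested. Of the 14721 genes, 619 were higher in etomoxir (4.20%) and 311 were higher in IO+DHEA (2.11%), together 6.32%, with an adjusted p (Benjamini-Hochberg) under 0.05 in the quasi-likelihood test of edgeR. The median difference was a log2 fold change of 1.68, or 3.21-fold, among the genes higher in etomoxir. It was -1.35, or 2.55-fold, among the genes higher in IO+DHEA. All log2 fold changes here are etomoxir minus IO+DHEA. Of the called genes, 214 were over 4-fold higher in etomoxir and 35 in IO+DHEA, and 58 of the 930 differed by under 2-fold. In each of the 930 genes every etomoxir library lay on the same side of both IO+DHEA libraries. Over all 14721 genes, called or not, both IO+DHEA libraries lay below every etomoxir library for 3990 (27.1%). They lay above every etomoxir library for 2726 (18.5%). The lack of overlap in the called genes is thus no sign of agreement beyond the calls.

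The genes higher in etomoxir made up a similar part of each etomoxir library and a smaller part of both IO+DHEA libraries. The 619 genes held 11.6%, 11.4% and 11.4% of the counts in the etomoxir libraries and 3.78% and 4.27% in the IO+DHEA libraries. In the control libraries, which were not used to choose these genes, they held 10.6% and 11.3%. The 311 genes higher in IO+DHEA held 4.70%, 4.94% and 4.57% of the counts in etomoxir, 11.5% and 10.8% in the IO+DHEA libraries, with 5.33% and 4.55% in control. For both sets the control libraries were within 1 percentage point of the etomoxir libraries. These shares describe genes that were chosen for this difference and carry no test.

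The calls needed all 3 etomoxir libraries. Leaving 1 out leaves 2 libraries per group, and why the calls were then lost was not tested. The fits without an IO+DHEA library also had 2 residual degrees of freedom. Without etomoxir library 1, 2 or 3, edgeR called 0 genes, with 2814, 2680 and 2603 at an unadjusted p under 0.05, against 3836 with all 5 libraries. It called 2263 genes without IO+DHEA library 1, and 4754 when library 2 of that group was left out. In these fits the lone IO+DHEA library was assumed to vary like the etomoxir libraries. Of the 930 genes, 921 were called in the same direction in the first of these fits and 929 in the second. The sign of the fold change was kept by all 930 genes without any 1 etomoxir library. This follows from the lack of overlap between the groups in these genes and is no sign of stability.

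The balance between the directions moved with the scaling. Over all genes the median log2 fold change was 0.09 with TMM, -0.02 with median-of-ratios factors and -0.17 with upper quartile factors. The split went from 619 higher and 311 lower in etomoxir to 459 and 357 and then to 353 and 563. Under all 3 scalings 352 genes were called higher in etomoxir and 309 higher in IO+DHEA, so these 661 did not depend on that choice. Among called differences of over 4-fold, more genes were higher in etomoxir under each scaling, with 214 and 35, 167 and 48, and 128 and 85. Over all genes tested, called or not, 1395 were over 4-fold higher in etomoxir and 641 in IO+DHEA with TMM. By edgeR, DESeq2 and limma-voom alike, 582 genes were higher in etomoxir and 308 higher in IO+DHEA.

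**Figure D2:**
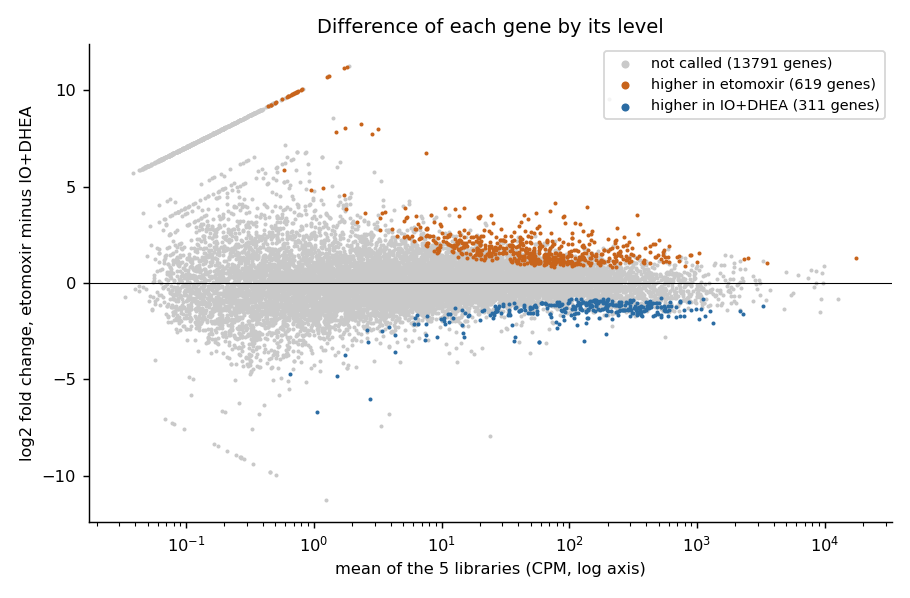
The x axis is the mean of the 5 libraries (CPM, log axis), the y axis the log2 fold change of etomoxir minus IO+DHEA, and each point is 1 of 14721 genes, coloured by its call. The 619 genes higher in etomoxir reach further from 0 than the 311 higher in IO+DHEA. The uppermost straight streak at the left holds genes with 0 counts in both IO+DHEA libraries, whose fitted fold change depends on the prior count.

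Abundant transcripts were called most often. CPM is not corrected for transcript length, so the classes below sort genes by their counts rather than by their molar level. Over 50 CPM, 304 of 2989 genes were higher in etomoxir and 236 higher in IO+DHEA, 18.1% in all against the 6.32% of all genes tested. At 5 to 50 CPM 273 of 4643 were higher in etomoxir and 64 higher in IO+DHEA, or 7.26%. Under 5 CPM these were 42 and 11 of 7089, or 0.748%. The error falls with the level, from a median SE of 1.27 on the log2 scale under 5 CPM to 0.24 over 50 CPM, so these shares say nothing of the size of the response. Over all genes of a class, called or not, the median absolute log2 fold change was 1.05 under 5 CPM, 0.64 at 5 to 50 CPM and 0.61 over 50 CPM.

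Among the most abundant transcripts the share called was close to or below the 18.1% of genes over 50 CPM. Of the 500 with the highest mean, all at 393 CPM or more, 32 were higher in etomoxir and 54 higher in IO+DHEA, or 17.2%. Of the first 100, at 1162 CPM or more, 4 and 6 were called, or 10%. Of these 100, 27 differed by over 2-fold and 1 by over 4-fold, called or not.

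Some called genes had 0 counts in a whole group. Of the 619 genes higher in etomoxir, 24 had 0 counts in both IO+DHEA libraries and 0.734 to 3.04 CPM in etomoxir as a group mean. Their etomoxir means were 46.8-fold to 194-fold above 3 counts over the IO+DHEA group, if 1 count is 1 fragment. That limit covers counting error only. Among genes at 1 to 2 CPM elsewhere, the first IO+DHEA library lacked counts for 18.1% and the second for 3.61%. Zeros were thus frequent at such levels, and these folds are no firm minimum of the difference. What caused the zeros was not tested. None of the 311 genes higher in IO+DHEA by edgeR had 0 counts in all etomoxir libraries. Among all genes tested, called or not, 495 had 0 counts in both IO+DHEA libraries and 17 in all 3 etomoxir libraries. The directions do not compare, since the first takes 2 libraries at 0 and the second 3, and such genes passed the filter through the other group alone. Among the 9739 genes with at least 1 CPM in every etomoxir library, 6 had 0 counts in both IO+DHEA libraries. Another 193 had 0 counts only in IO+DHEA library 1 and 12 only in library 2, and of these 3 and 1 were called. The reverse, 0 counts in every etomoxir library with at least 1 CPM in both IO+DHEA libraries, was found for 0 of 9337 genes. With the 24 genes set at their folds against 3 counts, the median log2 fold change of the genes higher in etomoxir stayed at 1.68 and the number over 4-fold at 214. Neither could change, since the lowest of these folds, 46.8-fold, lies above both the median and 4-fold.

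The largest difference among called genes of at least 5 CPM was that of ENSBTAG00000009400. It was at 11.3, 12.6 and 13.6 CPM in the etomoxir libraries and at 0.0251 and 0.197 CPM in the IO+DHEA libraries, from 2 and 22 counts. The control libraries were at 11.9 and 11.9 CPM. The etomoxir and control libraries were alike, while both IO+DHEA libraries were close to 0 and differed from each other by 7.88-fold. The log2 fold change of 6.75 ± 0.93 (SE) was a 108-fold difference with an edgeR adjusted p of 0.0286. It was higher in 3 of 3 etomoxir libraries than in either IO+DHEA library. The size of the fold rests on the IO+DHEA library used, at 62.6-fold without library 1 and 437-fold without library 2, and the 2 counts of library 1 are within what a count of 0 allows.

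ENSBTAG00000016748 was the other gene named for a high level in etomoxir. It was at 42.9, 170 and 161 CPM in etomoxir, 5.39 and 8.53 CPM in IO+DHEA, while the controls were at 67.0 and 96.3 CPM. Etomoxir library 1 was the low one of its group, and still 5.04-fold above the higher IO+DHEA library. The log2 fold change was 4.16 ± 0.70 (SE), 17.9-fold, with an edgeR adjusted p of 0.0347.

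ENSBTAG00000048955 had the largest difference towards IO+DHEA among called genes of at least 5 CPM. It was at 23.5, 13.2 and 6.69 CPM in etomoxir, 123 and 123 CPM in IO+DHEA, and 3.88 and 6.22 CPM in control. The IO+DHEA libraries were alike here and lay 5.21-fold above the highest etomoxir library. The log2 fold change was -3.08 ± 0.50 (SE), 8.48-fold, with an edgeR adjusted p of 0.0340. ENSBTAG00000052446 came next, at 16.7, 16.1 and 11.3 CPM in etomoxir, 129 and 115 CPM in IO+DHEA, and 22.9 and 16.1 CPM in control. Its log2 fold change was -3.05 ± 0.24 (SE), 8.31-fold, with an edgeR adjusted p of 0.0170. The etomoxir and control libraries of this gene overlapped, and both IO+DHEA libraries stood at least 6.87-fold above every etomoxir library.

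The calls of these 4 genes were lost without any 1 etomoxir library and with a replicate block, while the fold changes kept their direction. The direction could hardly change, since genes were named only where the groups did not overlap. Without etomoxir library 1, 2 or 3 the edgeR adjusted p was 0.148, 0.167 and 0.187 for ENSBTAG00000009400, and 0.136, 0.167 and 0.188 for ENSBTAG00000016748. It was 0.148, 0.167 and 0.187 for ENSBTAG00000048955, and 0.148, 0.167 and 0.148 for ENSBTAG00000052446. The log2 fold change in these fits was 6.70 to 6.82 for ENSBTAG00000009400, 3.87 to 4.57 for ENSBTAG00000016748, -3.63 to -2.74 for ENSBTAG00000048955 and -3.16 to -2.90 for ENSBTAG00000052446. With the replicate block the edgeR adjusted p was 0.308 to 0.339.

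The named genes are among the 8 largest differences per direction, taken over called genes of at least 5 CPM. The 8 largest differences towards etomoxir ran from a log2 fold change of 6.75 to 3.76, and the 8 largest towards IO+DHEA from -3.08 to -2.78. In the first set the lowest etomoxir library was 5.04 to 57.4-fold above the highest IO+DHEA library. In the second the lowest IO+DHEA library was 2.24 to 6.87-fold above the highest etomoxir library. Both control libraries lay clear of both IO+DHEA libraries, on the etomoxir side, in all 8 genes of each set. In 3 genes of each set both controls lay below all etomoxir libraries. Etomoxir library 1 had the highest value of its group in 7 of the 8 genes higher in IO+DHEA and in 3 of the 8 higher in etomoxir.

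**Figure D3:**
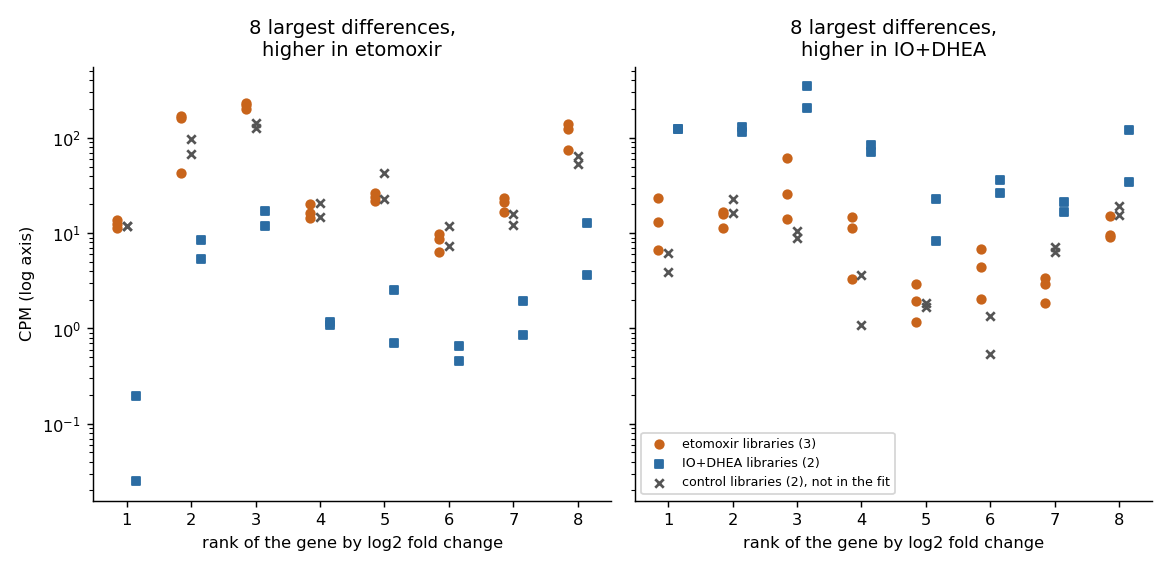
The x axis ranks the 8 called genes of at least 5 CPM with the largest log2 fold change in each direction, and the y axis is the level (CPM, log axis). Each point is 1 library: circles for etomoxir, squares for IO+DHEA, crosses for control, which was not in the fit. In all 16 genes the 3 etomoxir libraries and both controls lie on 1 side of both IO+DHEA libraries.

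Among called genes of at least 5 CPM, the 8 largest differences towards IO+DHEA shared a feature of their names. Ensembl numbers its gene models as they are added, so high numbers belong to later models. The 6999 IDs numbered 48318 to 55316 follow each other without a gap, while the 20608 lower IDs have gaps. All 8 of these genes belong to the unbroken run, and 0 of the 8 genes with the largest differences towards etomoxir do. Both sets of 8 leave out genes under 5 CPM. There, 11 genes were called higher in IO+DHEA, all of them by over 4-fold, and 0 of these belong to the run. The called difference furthest towards IO+DHEA, a log2 fold change of -6.70, lay under 5 CPM. Of the genes tested, 10.7% belong to the run. Of the called genes over 4-fold higher in IO+DHEA, 13 of 35 did (37.1%), against 8 of 214 (3.74%) of those over 4-fold higher in etomoxir. Of all called genes, 45 of 311 higher in IO+DHEA (14.5%) and 15 of 619 higher in etomoxir (2.42%) belong to it. Over all levels this excess depended on the setting. Called higher in IO+DHEA were 2.86% of the run and 2.02% of the lower numbers in the comparison above, but 8.65% and 9.48% with DESeq2, 1.96% and 2.14% without a filter, and 12% and 12.5% without IO+DHEA library 2. This class was noticed after the values were seen and carries no test. What kinds of gene it holds was not analysed here.

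The shift of these genes was largest at high levels and was present in both IO+DHEA libraries. Over 50 CPM, 32 of the 116 genes of the run were called higher in IO+DHEA (27.6%), against 204 of 2873 with lower numbers (7.10%). Towards etomoxir the counts were 4 (3.45%) and 300 (10.4%). The median log2 fold change was -0.75 in the run and 0.08 among lower numbers. IO+DHEA library 1 lay above all 3 etomoxir libraries for 67.2% of the 116 genes and 43.2% of the 2873, and IO+DHEA library 2 for 60.3% and 36.0%. The median level of the 116 genes was 100, 101 and 108 CPM in the etomoxir libraries, 157 and 147 CPM in the IO+DHEA libraries, and 105 and 104 CPM in the controls. At 5 to 50 CPM the run had 13 of 280 genes higher in IO+DHEA (4.64%) against 51 of 4363 (1.17%). Under 5 CPM it had 0 of 1176 against 11 of 5913. The run held 3.39% to 3.71% of the counts of an etomoxir library, 5.38% and 4.55% in IO+DHEA, and 3.47% and 3.43% in control.

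The difference between the ID classes over 50 CPM held under the other settings that called genes. The share of the run called higher in IO+DHEA was 28.4% with median-of-ratios and 36.2% with upper quartile factors, against 7.76% and 11.8% of the lower numbers. It was 51.7% against 22.1% by DESeq2 and 33.6% against 9.47% by limma-voom. It was 35.3% against 11.7% without IO+DHEA library 1 and 55.2% against 30.2% without its partner, library 2. The place among the 8 largest differences was less stable, with 2 of 8 in the run without IO+DHEA library 1 and 3 of 8 without library 2 of the group. Without any 1 etomoxir library 0 genes were called by edgeR, and the median of the run was -0.83 to -0.73, against 0.06 to 0.08 for lower numbers.

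**Figure D4:**
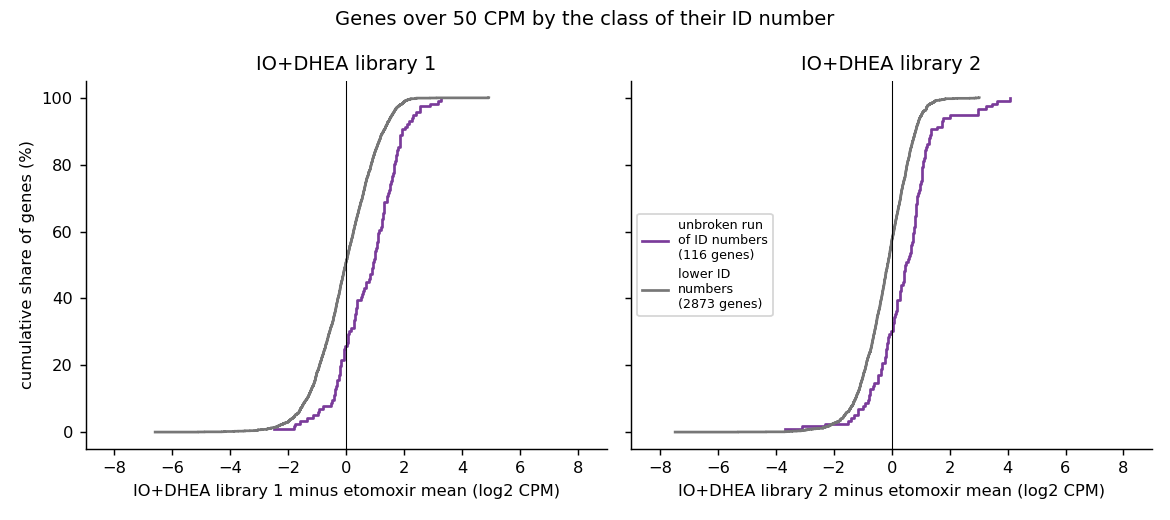
The x axis is the level in IO+DHEA library 1 (left) or 2 (right) minus the mean of the 3 etomoxir libraries (log2 CPM), and the y axis the cumulative share of genes (%), for genes over 50 CPM. The curve of the 116 genes of the unbroken run lies to the right of the curve of the 2873 genes with lower numbers in both panels over most of its length, with 67.2% and 60.3% of the run above all etomoxir libraries.

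The mean of the IO+DHEA group hid genes for which its libraries disagreed. Each IO+DHEA library was set against the mean of the etomoxir libraries on log2 CPM, as a description with no test. Of the 7632 genes of at least 5 CPM, 5619 had the same sign of difference in both IO+DHEA libraries and 2013 had opposite signs. Both differences are taken from 1 etomoxir mean, which by itself favours the same sign, so this count is no measure of agreement. Both libraries were over 2-fold lower than etomoxir for 835 genes and over 2-fold higher for 332. A difference of over 2-fold in library 1 alone was found for 1650 genes, and in library 2 alone for 833. For 121 genes the libraries were over 2-fold away on opposite sides, 44 with library 1 high and 77 with library 2 high. None of the 121 was called by edgeR, which their choice made likely in advance, since opposite differences widen the spread of the group. The remaining 3861 genes were within 2-fold of the etomoxir mean in both libraries.

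Of the 1167 genes over 2-fold away on the same side in both IO+DHEA libraries, 683 were called and 484 were not. Of all 7632 genes of at least 5 CPM, 877 were called (11.5%), and a higher share among genes chosen for their difference follows from the choice. The uncalled genes had a wider gap between the IO+DHEA libraries, with a median of 0.70 on the log2 scale against 0.35 among the called genes. They also had a wider range among the etomoxir libraries, 0.60 against 0.34. The test weighs a difference against the spread within groups, so both contrasts are built into the calls. Among the 577 called genes of at least 5 CPM that were higher in etomoxir, the median difference from etomoxir was -1.63 in IO+DHEA library 1 and -1.60 in library 2. Among the 300 higher in IO+DHEA it was 1.45 in library 1 and 1.11 in library 2, and library 1 was the farther of the pair for 230.

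The place of each IO+DHEA library against the range of the etomoxir libraries gave the same picture. Both lay below the range for 2602 of the 7632 genes (34.1%) and above it for 1720 (22.5%), against the 11.5% called at these levels. These shares describe the 5 libraries, and no value for groups without a difference was computed. The libraries lay on opposite sides of the range for 438 and 563 genes, and both lay inside it for 396 (5.19%). With upper quartile factors the order turned, to 1881 genes below and 2367 above.

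**Figure D5:**
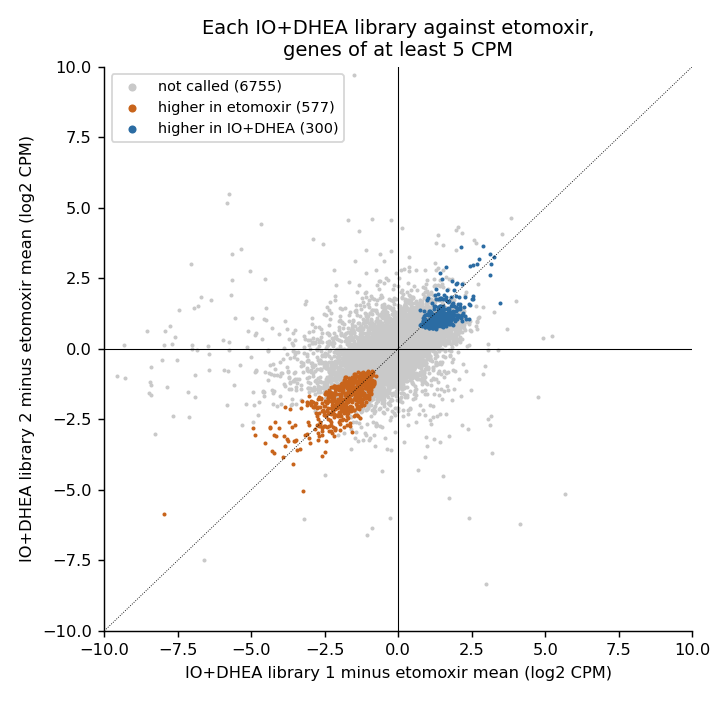
The x and y axes are the differences of IO+DHEA libraries 1 and 2 from the mean of the 3 etomoxir libraries (log2 CPM), and each point is 1 of 7632 genes of at least 5 CPM, coloured by its call. The 577 and 300 called genes lie near the dotted line of equal difference in the lower left and upper right, and the 121 genes over 2-fold away on opposite sides lie in the other quadrants.

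The difference could be bounded within 2-fold for part of the genes only, by intervals that take each gene alone. By limma-voom, the 95% interval of the difference lay within 2-fold in both directions for 1721 of 14721 genes (11.7%). These were 1030 of 2989 genes over 50 CPM (34.5%), 686 of 4643 at 5 to 50 CPM (14.8%) and 5 of 7089 under 5 CPM (0.0705%). None of the 1721 was called by edgeR. This was likely in advance, since the smallest absolute log2 fold change among called genes was 0.79. The median interval reached 1.47-fold to either side of the estimate over 50 CPM, 1.83-fold at 5 to 50 CPM and 8.64-fold under 5 CPM. For most of the genes that were not called, the interval thus took in differences of 2-fold or more. The intervals were not adjusted for the number of genes and assume 1 spread per gene for both groups. They also depend on the centring, as the median log2 fold change over all genes was 0.27 by limma-voom and 0.09 by edgeR.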

How the data were processed

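The authors deposited a table of raw counts per Ensembl gene ID, without normalization. The submitters' processing notes list, per the labels, cutadapt 1.18, STAR 2.7.9a, featureCounts 2.0.1 and the build ARS-UCD1.2. How strand, read pairs and multi-mapping reads were counted, and with which annotation, is not stated there, so values of overlapping genes and of near-identical copies are uncertain. Per the labels' protocols, libraries were made with a SMARTer ultra-low input kit and Nextera XT.

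Counts were fitted in R 4.3.3 with edgeR 4.0.16 (TMM, glmQLFit, glmQLFTest, two-sided) over the 5 treated libraries, with 3 residual degrees of freedom and adjusted p over all 14721 genes. The SE is the log2 fold change divided by the square root of the F statistic, and a prior count of 2 was added for log2 CPM. Control libraries were scaled against the same reference library. Replicates were not the same library deposited again, since a chi-square of their counts was 135 to 844 per degree of freedom. The script was tested on simulated counts with 1 spread per gene for both groups, which does not cover the unequal spread of these groups. Alternatives were other scalings and filters, DESeq2 1.42.0, limma 3.58.1 (voom), robust estimation, all 7 libraries, a replicate block, halved counts and leaving out each library. Figures used matplotlib 3.10.9.

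The comparison, the lists and the alternatives were chosen with earlier results of these data known. Genes named were the called genes of at least 5 CPM, without overlap between groups, with the largest fold change, 2 per direction since no symbols could be matched. Gene lists by symbol were not applied for that reason.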

Additional observations from a re-analysis of the deposited data

How the results depend on the processing

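The number of genes called was 930 (619 higher in etomoxir, 311 higher in IO+DHEA). It stayed within 1.5 times of 930 under both other scalings, without a filter, with limma-voom, robust estimation and halved counts. The genes higher in etomoxir numbered 353 with upper quartile factors, and the genes higher in IO+DHEA 563. A filter of 5 CPM in 2 libraries gave 1727 calls, 858 of them higher in IO+DHEA, on 7981 genes tested. DESeq2 gave 3048 (1666 and 1382), and all 7 libraries in 1 fit gave 1796 (1129 and 667). With limma-voom 442 were higher in IO+DHEA. Leaving out 1 library gave 0 to 4754 calls, 0 to 2981 higher in etomoxir and 0 to 1773 higher in IO+DHEA, 0 coming from each fit without an etomoxir library. The replicate block gave 0 calls in either direction by edgeR, with 1 residual degree of freedom, and 1548 genes had an unadjusted p under 0.05. The labels number the libraries, but only numbers 1 and 2 occur in both groups. Deviations from the group means correlated at -0.209 for libraries numbered 1 and -0.262 for those numbered 2. The deviations of the 2 IO+DHEA libraries mirror each other, so these values are not independent. Nothing here shows that the numbers pair the libraries. The cause of these shifts was not tested. No gene among the 930 was called in the opposite direction under the 11 of 15 alternatives that called any gene, and each of the 4 named genes kept its direction. A change of direction was unlikely from the start, since the groups did not overlap in any of the 930 genes. The difference in genes detected, 1682, kept its sign but was 649 to 2715 when 1 library was left out, and at 10 counts the groups overlapped (exact two-sided permutation p = 0.6).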
